A study of Mus musculus with 2 samples.

Results

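The genes described here are 10 receptors and bridging proteins through which phagocytes take up dying cells (efferocytosis) and scavenge modified lipoproteins: the ligands Gas6, Pros1 and Mfge8, the receptors Mertk and Axl, and the scavenger receptors Stab1, Cd36, Scarb1, Msr1 and Marco. They were chosen by name out of 31053 genes in the count tables, with earlier results of these data known. All 10 were found there by symbol. Cells came from subcutaneous fibrosarcomas, connective tissue tumours grown from syngeneic cells implanted in wild-type C57BL/6 mice, and were sequenced as single cells in droplets with 10x Genomics 3' v3 chemistry, which counts RNA molecules by their molecular barcodes (UMIs). The design text names autologous erythrocytes as the injected agent and saline alone as its control. Titles and treatment labels disagree: the treatment of the library titled Blood is PBS injected, and that of the library titled Control is Erythrocyte injected. Each library is therefore called by its title, and whether a direction goes with erythrocytes or with saline cannot be told. Both came from wild-type tumours minced and digested at 37 °C for 45 minutes with collagenase b and DNase I and freed of red cells by lysis. The sources used here give no age, sex, number of animals per library or cell sort. Each group has 1 library, so nothing was tested between them and differences lack a replicate check. Exact 95% intervals are given, and they cover counting error only.

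Dying cells expose phosphatidylserine on their surface. Gas6 and protein S (Pros1) bind it and bridge to the TAM receptor tyrosine kinases, of which Mertk and Axl are members, while Mfge8 bridges it to integrins of the alpha v type, and Stab1 binds it directly. Scavenger receptors of class A (Msr1 and Marco) and class B (Cd36 and Scarb1) take up modified lipoproteins and other polyanionic or lipid ligands, and macrophages are the cells best known for this whole programme.

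There were 12057 barcodes with 115066023 UMIs in titled Blood, against 9475 barcodes with 115272096 UMIs in titled Control. After filtering, 11316 cells titled Blood and 8828 titled Control were analysed, with a median of 6563 UMIs per cell in titled Blood and 9246.5 in titled Control. The libraries shared 349 barcode sequences. These barcodes marked 344 analysed cells in titled Blood, with a median of 1113 UMIs, and 342 in titled Control, with a median of 30490.5. Of the 339 sequences analysed in both libraries only 70 fell into the same cell class in both. They made up 1.08% of macrophage-like cells in titled Blood and 1.97% in titled Control, but 87.0% of mesenchymal-like cells in titled Blood and 81.6% in titled Control. Of 159 ratios between libraries for a gene in a class or cluster, leaving these barcodes out moved 6 by over 1.5 times, all in mesenchymal-like cells or unnamed cluster 19, and the largest change in a macrophage-like cluster or in cluster 13 was 1.13-fold.

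Cells fell into 25 clusters, made with the 10 genes and 73 further genes of the same pathways left out. Macrophage-like cells made up 8 of the clusters, with 5477 cells in titled Blood and 5594 in titled Control, and C1qa, C1qb and the other 7 markers of the list were all detected. C1qa, a complement subunit, stood at 4465 counts per 1e6 UMIs (CPM) in titled Blood and 4692 CPM in titled Control in macrophage-like cells, against 69.5 CPM in titled Blood and 88.0 CPM in titled Control in T cell-like cells. The 8 macrophage-like clusters are called by number and leading genes: 0 (Ccl8, Folr2), 12 (Retnla, Lyve1), 1 (Mmp12, Arg1), 4 (Tlr12, Dnase1l3), 3 (Ly6i and MHC class II genes), 7 (the interferon-induced Ifit3 and Rsad2), 9 (Cxcl9, Batf2) and 5 (the proliferation genes Mki67 and Top2a). Cluster 13, with 462 cells in titled Blood and 134 in titled Control, was led by Ppbp, Hmox1, Mt2, Cd36 and Mmp8 and stayed unnamed. Its macrophage marker score of 0.476 missed the limit of 0.5. It also failed a second rule: of its 10 genes highest against other classes, 0 were macrophage markers and 1 marked another class. Because Cd36 leads that cluster and Gas6 is among the leading genes of cluster 0, their levels there describe those clusters, although neither gene was used to form them.

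All 10 are protein-coding genes, placed here by GENCODE M21 on GRCm38, the mm10 assembly. The ligand genes are Gas6 on chromosome 8 from 13465374 to 13494490 (minus strand), Pros1 on chromosome 16 from 62854307 to 62929346 (plus strand) and Mfge8 on chromosome 7 from 79133768 to 79149060 (minus strand). The TAM receptor genes are Mertk on chromosome 2 from 128698956 to 128802894 (plus strand) and Axl on chromosome 7 from 25757273 to 25788705 (minus strand). The scavenger receptor genes are Stab1 on chromosome 14 from 31139013 to 31168641 (minus strand), Scarb1 on chromosome 5 from 125277087 to 125341094 (minus strand), Msr1 on chromosome 8 from 39581685 to 39642673 (minus strand) and Marco on chromosome 1 from 120474538 to 120505024 (minus strand), besides Cd36. The start regions of a receptor pair, a ligand and the most uneven scavenger receptor are shown because the results turn on Mertk and Axl, which had different cluster patterns, on Gas6 and on Cd36. RefSeq (GRCm38.p6) held start regions for 8 of the 10 genes, and each sequence printed is the 250 bases before the annotated start, 5′ to 3′ on the strand of the gene. Capitals mark matches to any of 8 motifs searched on both strands: the GC box GGGCGG, the MAF core TGCTGA, the nuclear receptor core AGGTCA, the antioxidant response element TGACNNNGC, the AP-1 site TGANTCA, the PU.1 site GAGGAAGT, the interferon-stimulated response element and the TATA box TATAAA.
Mertk, chr2:128698665-128698914, plus strand: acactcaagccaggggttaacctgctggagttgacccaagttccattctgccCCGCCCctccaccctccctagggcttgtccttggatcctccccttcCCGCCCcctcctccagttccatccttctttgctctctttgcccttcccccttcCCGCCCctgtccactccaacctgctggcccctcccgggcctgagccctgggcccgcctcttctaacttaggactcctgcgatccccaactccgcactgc
Axl, chr7:25788734-25788983, minus strand: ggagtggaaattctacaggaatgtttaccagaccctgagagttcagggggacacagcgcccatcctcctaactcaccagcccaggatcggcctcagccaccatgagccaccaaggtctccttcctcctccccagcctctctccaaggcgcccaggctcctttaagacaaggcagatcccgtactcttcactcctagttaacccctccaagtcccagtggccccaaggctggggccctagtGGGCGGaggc
Gas6, chr8:13494536-13494785, minus strand: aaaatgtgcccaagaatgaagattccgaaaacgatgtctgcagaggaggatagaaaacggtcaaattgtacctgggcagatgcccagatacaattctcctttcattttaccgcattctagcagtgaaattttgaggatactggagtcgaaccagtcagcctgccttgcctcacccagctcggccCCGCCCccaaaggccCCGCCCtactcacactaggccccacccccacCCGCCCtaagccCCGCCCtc
Cd36, chr5:17835897-17836146, minus strand: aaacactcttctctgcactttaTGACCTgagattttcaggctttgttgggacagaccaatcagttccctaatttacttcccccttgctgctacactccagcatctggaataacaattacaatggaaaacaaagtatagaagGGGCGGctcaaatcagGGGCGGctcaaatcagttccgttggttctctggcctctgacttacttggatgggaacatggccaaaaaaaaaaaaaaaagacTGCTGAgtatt
The GC box was matched 3 times before Mertk, 1 time before Axl, 4 times before Gas6 and 2 times before Cd36, and 32.7% of all 32851 start regions of this length held it. Cd36 also had a MAF core, 11 to 6 bases before the start, and a nuclear receptor core, 228 to 223 bases before it, motifs that 16.1% and 14.0% of all start regions held. The antioxidant response element, held by 10.2% of all start regions, the AP-1 site (6.75%), the PU.1 site (2.44%), the interferon-stimulated response element (2.98%) and the TATA box (12.4%) had no match in any of the 8 regions. A match describes letters in this window only. The RefSeq start of Cd36 lies inside the gene as GENCODE annotates it (chromosome 5, 17781690 to 17888801, minus strand), and 3' counts do not show which start was used.

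Most UMIs of Gas6, Mertk, Stab1 and Msr1 lay in macrophage-like cells, while Mfge8 and Cd36 had large further sources. Macrophage-like cells held 96.5% of Gas6 UMIs in titled Blood and 96.7% in titled Control. They held 71.3% of all UMIs in titled Blood and 75.4% in titled Control. For Mfge8 the share was 64.3% in titled Blood and 43.0% in titled Control. Another 15.2% in titled Blood and 34.8% in titled Control lay in mesenchymal-like cells. For Cd36 it was 49.9% in titled Blood and 63.9% in titled Control. Another 42.8% in titled Blood and 29.3% in titled Control lay in cluster 13. The Cd36 shares depended on how clusters were formed and named: over 7 other settings macrophage-like cells held between 24.2% and 92.6% of its UMIs in titled Blood and between 34.4% and 93.6% in titled Control.

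**Figure D1:**
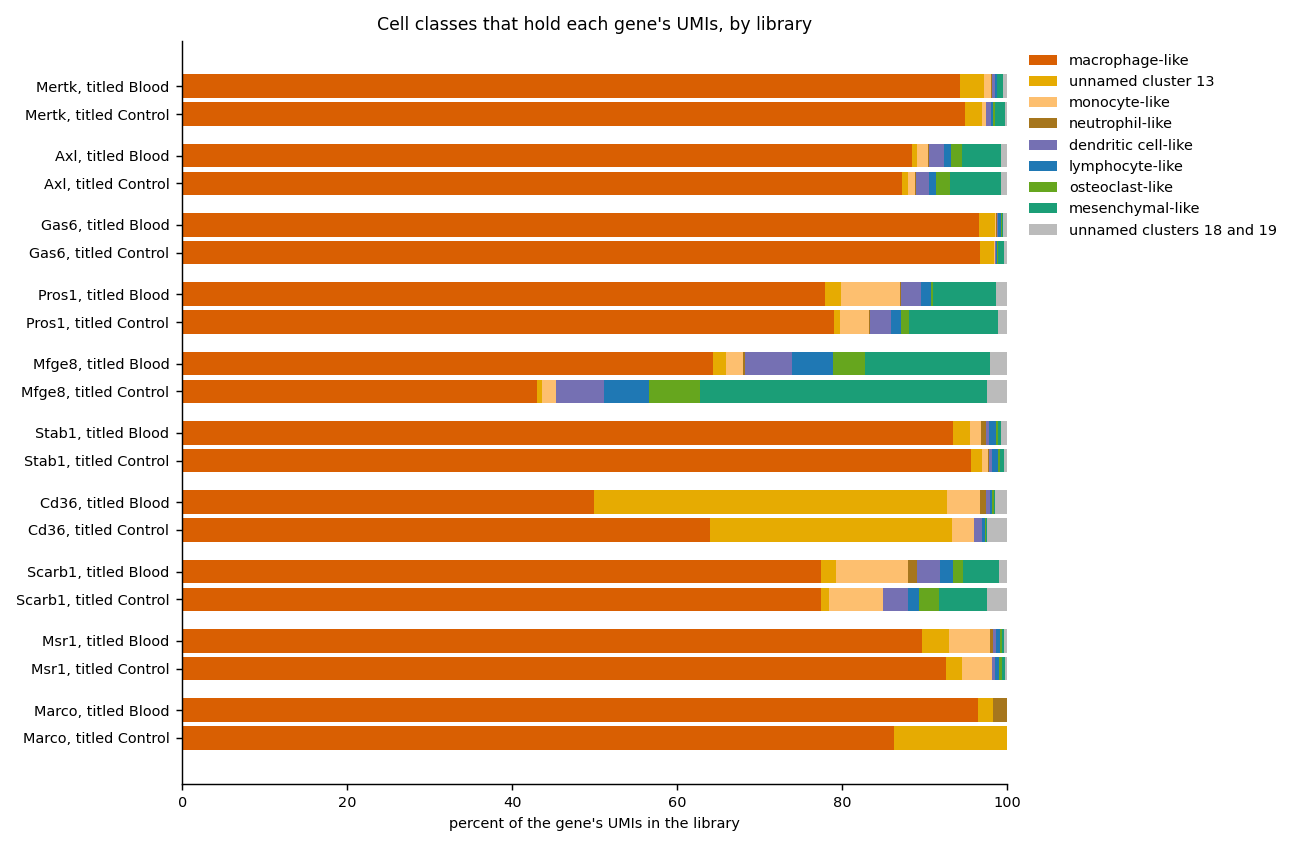
Share of each gene's UMIs (percent, horizontal axis) held by each cell class, with a bar for titled Blood above a bar for titled Control for every gene. Macrophage-like cells fill the largest part of every bar. Further large parts are seen for Mfge8, where mesenchymal-like cells held 15.2% in titled Blood and 34.8% in titled Control, and Cd36, where cluster 13 held 42.8% in titled Blood and 29.3% in titled Control.

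Gas6, the high-affinity ligand of the TAM receptors, was the most unevenly spread ligand among macrophage-like clusters. In cluster 12 (Retnla, Lyve1) it stood at 457 CPM in titled Blood and 480.02 CPM in titled Control. In cluster 0 (Ccl8, Folr2) it stood at 157 CPM in titled Blood and 178 CPM in titled Control. At the other end, cluster 3 (Ly6i, MHC class II) had 2.96 CPM in titled Blood and 3.92 CPM in titled Control, so the span from top to bottom was 155-fold in titled Blood and 123-fold in titled Control. The other clusters and cluster 13 lay between 18.98 and 66.5 CPM over both libraries. Thinning to 5000 UMIs left out cells with fewer UMIs. In cluster 12 these were 211 of 383 cells in titled Blood and 87 of 253 in titled Control. Of the thinned cells of cluster 12, 55.8% in titled Blood (48.1% to 63.4%) and 57.2% in titled Control (49.3% to 64.9%) had a Gas6 UMI. Unthinned, over all cells of cluster 12, the shares were 55.4% in titled Blood and 60.1% in titled Control. In cluster 3 the thinned share was 1.46% in titled Blood and 1.81% in titled Control. Gas6 also stood at 48.1 CPM in titled Blood and 58.2 CPM in titled Control in unnamed cluster 18, and at 15.1 CPM in titled Blood and 17.5 CPM in titled Control in unnamed cluster 19. T cell-like cells, which should lack it, had 1.91 CPM in titled Blood and 1.504 CPM in titled Control. Monocyte-like cells had 1.24 CPM in titled Blood and 2.11 CPM in titled Control.

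Pros1, the anticoagulant protein S and the other TAM ligand, was a low gene with a different spread. Over all macrophage-like cells it stood at 10.6 CPM in titled Blood (9.92 to 11.4) and 11.95 CPM in titled Control (11.2 to 12.7). Cluster 12 again was highest among macrophage-like clusters, at 24.7 CPM in titled Blood and 63.6 CPM in titled Control. Mesenchymal-like cells had 24.0 CPM in titled Blood and 24.3 CPM in titled Control. Without shared barcodes, which left few cells, they had 26.8 CPM in titled Blood and 51.8 CPM in titled Control. Monocyte cluster 16 had 30.2 CPM in titled Blood and 19.1 CPM in titled Control, above the other monocyte cluster, number 8, at 5.94 CPM in titled Blood and 6.60 CPM in titled Control.

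Mfge8, the milk fat globule protein that bridges phosphatidylserine to integrins, was highest outside the macrophages. Mesenchymal-like cells had 80.0 CPM in titled Blood (70.8 to 90.1) and 91.2 CPM in titled Control (83.5 to 99.5), and the value was the same in each library when shared barcodes were kept only in the library where they had more UMIs. Without any shared barcode, which left few cells, mesenchymal-like cells had 60.2 CPM in titled Blood and 90.6 CPM in titled Control. Migratory DC-like cells, dendritic cells on their way to lymph nodes, had 54.4 CPM in titled Blood and 33.2 CPM in titled Control, with overlapping intervals (35.2 to 80.3 in titled Blood and 20.3 to 51.3 in titled Control). Osteoclast-like cells had 51.7 CPM in titled Blood and 45.7 CPM in titled Control. Conventional DC-like cells had 24.2 CPM in titled Blood and 21.0 CPM in titled Control. Macrophage-like cells stood lower, at 14.7 CPM in titled Blood (13.9 to 15.6) and 7.56 CPM in titled Control (6.98 to 8.17), next to T cell-like cells at 8.26 CPM in titled Blood (6.38 to 10.5) and 8.72 CPM in titled Control (6.62 to 11.3). In titled Control macrophage-like and T cell-like cells thus overlapped, and in titled Blood macrophage-like cells were above T cell-like cells. That rested on few cells. Without the 1% of macrophage-like cells highest in Mfge8, the macrophage-like level was 8.18 CPM in titled Blood and 5.62 CPM in titled Control. The titled Blood value then lay within the T cell-like interval, which is over all T cell-like cells.

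**Figure D2:**
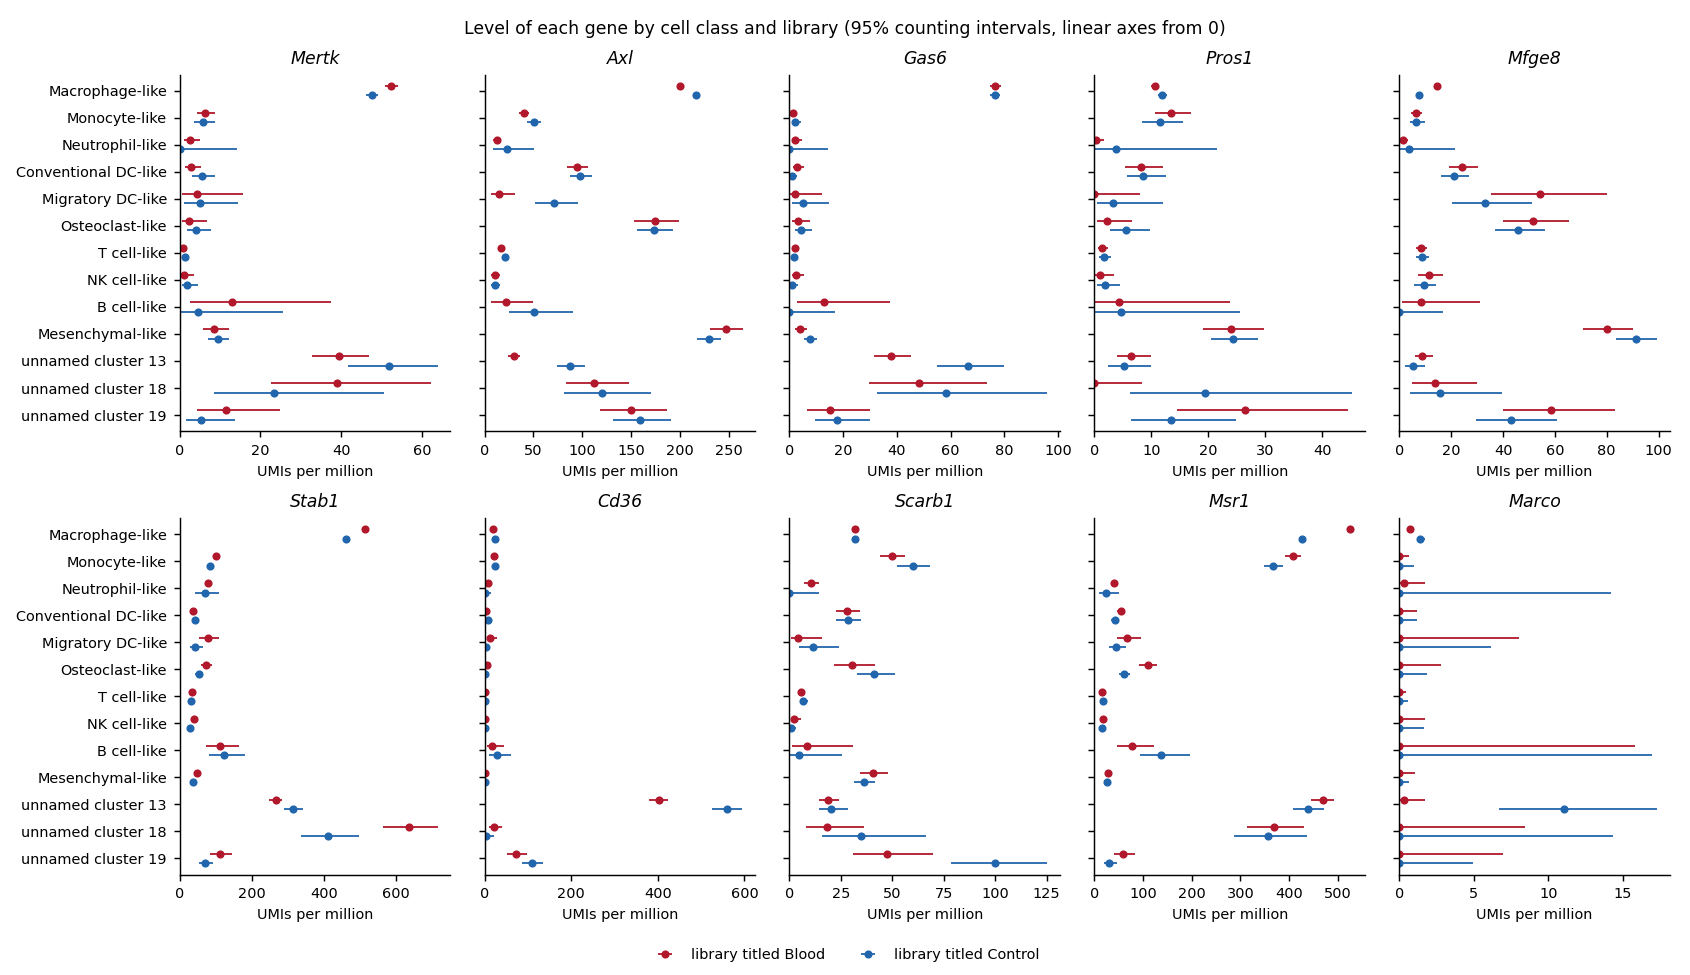
Level of each gene in CPM (horizontal axes, linear from 0, a panel per gene) by cell class, with points for titled Blood above points for titled Control and exact 95% counting intervals; plasmacytoid DC-like cells are too few to plot. Gas6, Mertk and Stab1 are high in macrophage-like cells and unnamed clusters 13 and 18, and Msr1 in those and in monocyte-like cells. Axl is high in macrophage-like, mesenchymal-like and osteoclast-like cells, Mfge8 is highest in mesenchymal-like cells, and Cd36 in cluster 13.

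Mertk, the TAM receptor tied to the uptake of apoptotic cells, was highest in macrophage-like cells among the named classes in both libraries. It stood at 52.4 CPM in titled Blood (50.8 to 54.0) and 47.5 CPM in titled Control (46.0 to 49.0) in macrophage-like cells. Monocyte-like cells had 6.22 CPM in titled Blood and 5.80 CPM in titled Control. Mesenchymal-like cells had 8.50 CPM in titled Blood and 9.41 CPM in titled Control, and T cell-like cells had 0.890 CPM in titled Blood and 1.20 CPM in titled Control. Its spread among macrophage-like clusters was mild. Cluster 12 was highest, at 76.3 CPM in titled Blood and 66.03 CPM in titled Control, with cluster 0 next, at 71.4 CPM in titled Blood and 64.3 CPM in titled Control, and the intervals of these clusters overlapped. Cluster 3 was lowest, at 23.4 CPM in titled Blood and 29.8 CPM in titled Control.

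Axl, the TAM receptor that inflammatory stimuli raise, followed another order. Cluster 4 (Tlr12, Dnase1l3) was highest, at 282 CPM in titled Blood and 281 CPM in titled Control. Cluster 7 (Ifit3, Rsad2) followed at 269.7 CPM in titled Blood and 257 CPM in titled Control. Cluster 3, lowest for Mertk, had 237 CPM in titled Blood and 227 CPM in titled Control. Cluster 12, highest for Mertk and Gas6, had 39.5 CPM in titled Blood and 66.4 CPM in titled Control. Cluster 13 had 30.2 CPM in titled Blood and 87.4 CPM in titled Control. So the receptor and its ligand peaked in different macrophage-like clusters. Axl also stood outside the macrophages: mesenchymal-like cells had 247 CPM in titled Blood and 229 CPM in titled Control. Osteoclast-like cells had 175 CPM in titled Blood and 174 CPM in titled Control. Conventional DC-like cells had 94.6 CPM in titled Blood and 97.9 CPM in titled Control. T cell-like cells had 17.3 CPM in titled Blood and 20.7 CPM in titled Control, which is 8.64% of the macrophage-like level in titled Blood and 9.59% in titled Control. For the 9 macrophage markers this share ran from 1.52% (Ms4a7) to 3.82% (Cd68) in titled Blood. In titled Control it ran from 1.87% (C1qa) to 5.10% (Fcgr1). The part of free RNA in the T cell-like value was not tested.

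Cells with a UMI of both TAM receptors were a minority at 5000 UMIs per cell. Thinning macrophage-like cells to 5000 UMIs kept 4569 cells in titled Blood (908 left out) and 4802 in titled Control (792 left out). Of the thinned cells, 22.5% in titled Blood and 20.3% in titled Control had a Mertk UMI (unthinned, over all cells, 42.5% in titled Blood and 41.2% in titled Control). An Axl UMI was found in 53.4% in titled Blood and 57.9% in titled Control (unthinned 67.1% in titled Blood and 73.9% in titled Control). Both were found in 11.9% of cells in titled Blood (11.002% to 12.9%) and 12.6% in titled Control (11.6% to 13.5%). Axl was about as frequent with Mertk as without it in titled Blood, in 53.0% of cells with a Mertk UMI and 53.6% of cells without one. In titled Control it was found in 61.8% of cells with one and 56.9% of cells without one. By cluster, cells with both made up 17.3% of 220 thinned cells of cluster 7 in titled Blood and 15.2% of 528 in titled Control. In cluster 12 they made up 2.91% of 172 thinned cells in titled Blood and 7.23% of 166 in titled Control. Gas6 was found in 19.3% of cells with an Axl UMI and 24.0% of cells without one in titled Blood, and in 16.5% of cells with one and 22.7% of cells without one in titled Control. With Mertk the order was the other way: Gas6 was found in 27.4% of cells with a Mertk UMI and 19.8% of cells without one in titled Blood, and in 23.9% of cells with one and 17.9% of cells without one in titled Control. As a background, in T cell-like cells, with a median of 4809 UMIs in titled Blood and 5042 in titled Control against 13070 in titled Blood and 13337 in titled Control in macrophage-like cells, 0.138% had a Mertk UMI in titled Blood and 0.353% in titled Control when thinned to 1500 UMIs. The same thinning gave 7.58% of macrophage-like cells in titled Blood and 6.57% in titled Control.

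**Figure D3:**
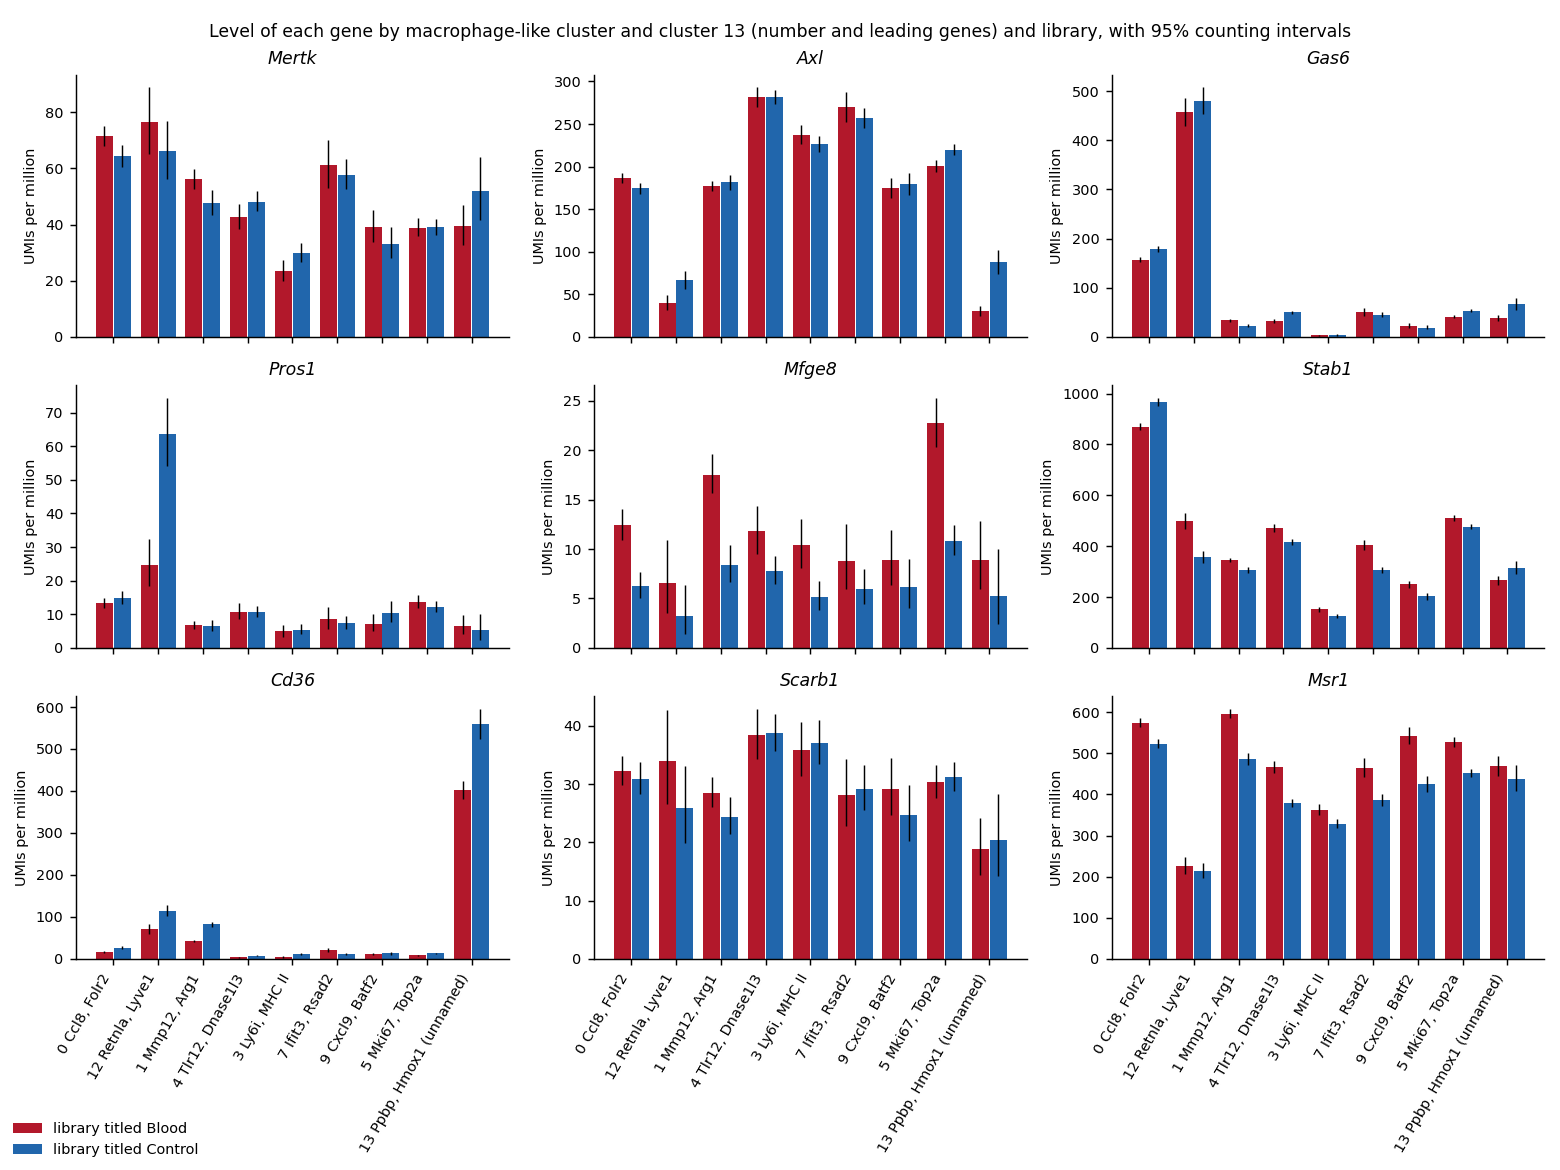
Level of each gene in CPM (vertical axes from 0, a panel per gene, Marco left out) by macrophage-like cluster and cluster 13, with bars for titled Blood left of bars for titled Control and exact 95% counting intervals. Gas6 peaks in clusters 12 and 0, Stab1 in cluster 0, Axl in clusters 4 and 7 with its low in clusters 12 and 13, and Cd36 in cluster 13.

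Stab1, the multifunctional receptor stabilin-1, was highest in cluster 0 (Ccl8, Folr2). That cluster had 869.9 CPM in titled Blood and 967 CPM in titled Control, and cluster 3 was lowest, at 151 CPM in titled Blood and 126 CPM in titled Control. Over all macrophage-like cells Stab1 stood at 512 CPM in titled Blood (507 to 517) and 461 CPM in titled Control (456 to 466). Monocyte-like cells had 101 CPM in titled Blood and 83.3 CPM in titled Control, and T cell-like cells 33.7 CPM in titled Blood and 30.1 CPM in titled Control. At 5000 UMIs per cell, Gas6 was found in 25.9% of cells with a Stab1 UMI and 8.50% of cells without one in titled Blood, and in 24.8% of cells with one and 7.24% of cells without one in titled Control. Unnamed cluster 18, of low depth, led by mast cell protease genes and with 32.9% of its titled Blood cells and 27.9% of its titled Control cells under shared barcodes, had 636 CPM of Stab1 in titled Blood and 411 CPM in titled Control.

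Msr1, the class A scavenger receptor of macrophages, was broadly spread. Among macrophage-like clusters it ran only 2.64-fold from bottom to top in titled Blood and 2.44-fold in titled Control. Clusters 1 (Mmp12, Arg1) and 0 were highest, at 597 CPM for cluster 1 and 575 CPM for cluster 0 in titled Blood and 486 CPM for cluster 1 and 524 CPM for cluster 0 in titled Control. Cluster 12 was lowest, at 226 CPM in titled Blood and 215 CPM in titled Control. Monocyte cluster 8 had 525 CPM in titled Blood and 498 CPM in titled Control, within the range of macrophage-like clusters. Monocyte cluster 16 had 147 CPM in titled Blood and 171 CPM in titled Control. T cell-like cells had 15.9 CPM in titled Blood and 16.8 CPM in titled Control. Marco, the other class A receptor, was hardly detected, with 57 UMIs in titled Blood and 138 in titled Control, of which macrophage-like cells held 55 in titled Blood and 119 in titled Control. No Marco UMI was found in monocyte-like cells, which allows up to 0.533 CPM in titled Blood and 0.791 CPM in titled Control.

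Cd36, the class B receptor for oxidised lipids and long-chain fatty acids, stood out by its concentration in cluster 13. That cluster had 402 CPM in titled Blood (381 to 425) and 559 CPM in titled Control (524 to 596). Cluster 12 followed with 70.3 CPM in titled Blood and 115 CPM in titled Control, and cluster 1 with 42.5 CPM in titled Blood and 82.2 CPM in titled Control. Cluster 4 was lowest, at 3.68 CPM in titled Blood and 7.23 CPM in titled Control. Within cluster 13 the 47 cells highest in Cd36 held 54.7% of its Cd36 UMIs in titled Blood and the 14 highest held 50.6% in titled Control. In all, 53.0% of its cells in titled Blood and 69.4% in titled Control had at least 1 UMI. Of macrophage-like cells, 10.7% in titled Blood and 12.8% in titled Control had a Cd36 UMI. Those with 5 or more UMIs, 85 cells in titled Blood and 117 in titled Control, held 46.9% of the UMIs in titled Blood and 52.2% in titled Control. The summed level of the platelet markers was higher in cells with 5 or more Cd36 UMIs, at 76.0 CPM in titled Blood and 32.6 CPM in titled Control. Only 2 of 5 markers had a UMI there in each library, so the sum does not speak for the whole list. The other macrophage-like cells had 14.3 CPM in titled Blood and 4.14 CPM in titled Control (3 of 5 markers in titled Blood and 4 of 5 in titled Control). The list includes Ppbp, which leads cluster 13. The part of platelet RNA in these values was not tested.

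Scarb1, the class B receptor that exchanges cholesterol with lipoproteins, was the most even of the receptors. Macrophage-like cells had 31.7 CPM in titled Blood (30.5 to 33.0) and 31.8 CPM in titled Control (30.6 to 33.0), and the 8 clusters lay between 24.4 and 38.8 CPM over both libraries. Monocyte-like cells were higher, at 49.8 CPM in titled Blood (44.1 to 55.9) and 59.9 CPM in titled Control (52.3 to 68.2), led by cluster 16 with 67.2 CPM in titled Blood and 87.6 CPM in titled Control. The low-depth, Fabp4-led unnamed cluster 19 had 47.3 CPM in titled Blood and 99.8 CPM in titled Control. T cell-like cells had 5.47 CPM in titled Blood and 6.77 CPM in titled Control.

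The order of the 9 clusters was alike in both libraries for most genes. Spearman's rho between the libraries, given as a description over 9 clusters that share a library and a clustering, was 0.95 for Pros1, 0.93 for Axl and Stab1, 0.92 for Mertk and Msr1, 0.85 for Gas6, 0.83 for Mfge8, 0.82 for Cd36, 0.80 for Scarb1 and 0.54 for Marco.

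Between the libraries, 7 of these genes had ratios between 0.890 and 1.23 in macrophage-like cells, Mfge8 was higher in titled Blood, and Cd36 was lower, by an amount that depended on the clustering (ratios of 0.378 to 0.994 over the settings tried). Of the 9 genes measured there (10 counts or more and 10 CPM or more in 1 library), 1 was at least 1.5-fold higher in titled Blood, where 0.631% of 7770 genes were, and 0 were at least 1.5-fold lower, where 1.16% were. The 1 gene, Mfge8, passed the 10 CPM filter through titled Blood alone. At Leiden resolution 2, with the libraries clustered apart and with clusters at equal weights, 1 gene, Cd36, was at least 1.5-fold lower. The median log2 ratio of CPM plus 5, titled Blood over titled Control, was 0.0042 over the 9 genes and 0.0106 over all measured genes. Gas6 had a ratio of 1.003 (0.968 to 1.04), Scarb1 of 0.996 (0.943 to 1.05), Axl of 0.925 (0.906 to 0.946), Pros1 of 0.890 (0.811 to 0.976), Mertk of 1.10 (1.06 to 1.15), Stab1 of 1.11 (1.10 to 1.13), Msr1 of 1.23 (1.21 to 1.25) and Cd36 of 0.781 (0.731 to 0.835). Over the settings tried the Gas6 ratio ran from 0.901 to 1.21 and kept its direction in 7 of 13. The Axl ratio ran from 0.849 to 0.995. By cluster, Gas6 ran from 0.651 in cluster 4 to 1.47 in cluster 1. Axl ran from 0.595 in cluster 12 to 1.07 in cluster 0. Msr1 was higher in titled Blood in all 8 macrophage-like clusters, by 1.05-fold to 1.27-fold. Stab1 was higher in titled Blood in 7 of the 8 clusters. In cluster 0, the cluster with its highest level, Stab1 was lower, with a ratio of 0.899 (0.880 to 0.919). With clusters at equal weights the macrophage-like ratio of Stab1 was 1.03.

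Mfge8 stood 1.95-fold higher in macrophage-like cells of titled Blood (1.77 to 2.15). The ratio was above 1 in all 8 clusters, from 1.43 to 2.10, with intervals that include 1 in clusters 7, 9 and 12, and reached 1.5-fold in the 5 clusters that passed the 10 CPM filter, 0, 1, 3, 4 and 5. In clusters 0, 1, 3 and 4 Mfge8 passed it through titled Blood alone, so the difference itself decided that it was counted there, and the 5 calls are given as a description. In these clusters between 0.494% and 1.17% of all measured genes were at least 1.5-fold higher in titled Blood (0.692% in cluster 0, 0.494% in cluster 1, 1.17% in cluster 3, 1.09% in cluster 4 and 0.742% in cluster 5). A small number of cells carried much of it. In titled Blood 1 macrophage-like cell had 109 Mfge8 UMIs and 23 cells with 5 or more held 36.0% of the 1154 UMIs. In titled Control the highest cell had 15 UMIs and 6 cells with 5 or more held 8.35% of 635. Without the 1% of cells highest in the gene in each library (55 cells in titled Blood and 56 in titled Control), Mfge8 stood at 8.18 CPM in titled Blood and 5.62 CPM in titled Control, a ratio of 1.46 (1.29 to 1.65), which is below 1.5-fold, with both levels below the 10 CPM filter. By cluster that left 1.61 in cluster 0, 1.69 in cluster 1, 2.32 in cluster 3, 1.49 in cluster 4 and 1.25 in cluster 5. The share of cells with a UMI, which 1 high cell cannot move, was 5.12% in titled Blood (4.50% to 5.80%) and 3.08% in titled Control (2.61% to 3.61%) at 5000 UMIs per cell. Unthinned it was 11.2% in titled Blood and 8.80% in titled Control. In T cell-like cells the unthinned share was 4.06% in titled Blood and 4.73% in titled Control. Their depth was lower, with a median of 4809 UMIs in titled Blood and 5042 in titled Control. Macrophage-like cells had a median of 13070 in titled Blood and 13337 in titled Control. The unthinned shares of these 2 classes are therefore not at equal depth. The 8 markers of mesenchymal cells, the class highest in Mfge8, summed in macrophage-like cells to 15.2 CPM in titled Blood and 28.4 CPM in titled Control. In the cells with 5 or more Mfge8 UMIs they summed to 26.5 CPM in titled Blood (5 of 8 with a UMI) and 15.6 CPM in titled Control (2 of 8). Neutrophil markers summed in macrophage-like cells to 146 CPM in titled Blood and 90.4 CPM in titled Control (7 of 7 in each), and platelet markers to 15.5 CPM in titled Blood and 4.92 CPM in titled Control (3 of 5 in titled Blood and 4 of 5 in titled Control). Their part in the Mfge8 values was not tested. In mesenchymal-like cells Mfge8 had a ratio of 0.877 (0.755 to 1.02), in conventional DC-like cells 1.15 (0.817 to 1.62) and in T cell-like cells 0.948 (0.655 to 1.37).

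Cd36 was lower in titled Blood within most macrophage-like clusters, and more so than over all of them together. In clusters 0, 1, 3, 5 and 12 it was at least 1.5-fold lower, with ratios of 0.585 in cluster 0, 0.517 in cluster 1, 0.304 in cluster 3, 0.616 in cluster 5 and 0.611 in cluster 12. In clusters 3 and 5 Cd36 passed the 10 CPM filter through titled Control alone, so the difference itself decided that it was counted there. The shares of all measured genes that were at least 1.5-fold lower were 1.31% in cluster 0, 0.668% in cluster 1, 1.38% in cluster 3, 1.32% in cluster 5 and 10.5% in cluster 12. In cluster 13 the ratio was 0.719 (0.661 to 0.783). With the clusters given the same weights in both libraries the macrophage-like ratio was 0.584, against 0.781 as measured; cluster 1, with more Cd36 than most, held 1374 cells in titled Blood and 708 in titled Control. Over whole libraries Cd36 was close to even, at 27.8 CPM in titled Blood (26.8 to 28.8) and 29.3 CPM in titled Control (28.3 to 30.4), with 462 cells of cluster 13 in titled Blood and 134 in titled Control.

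**Figure D4:**
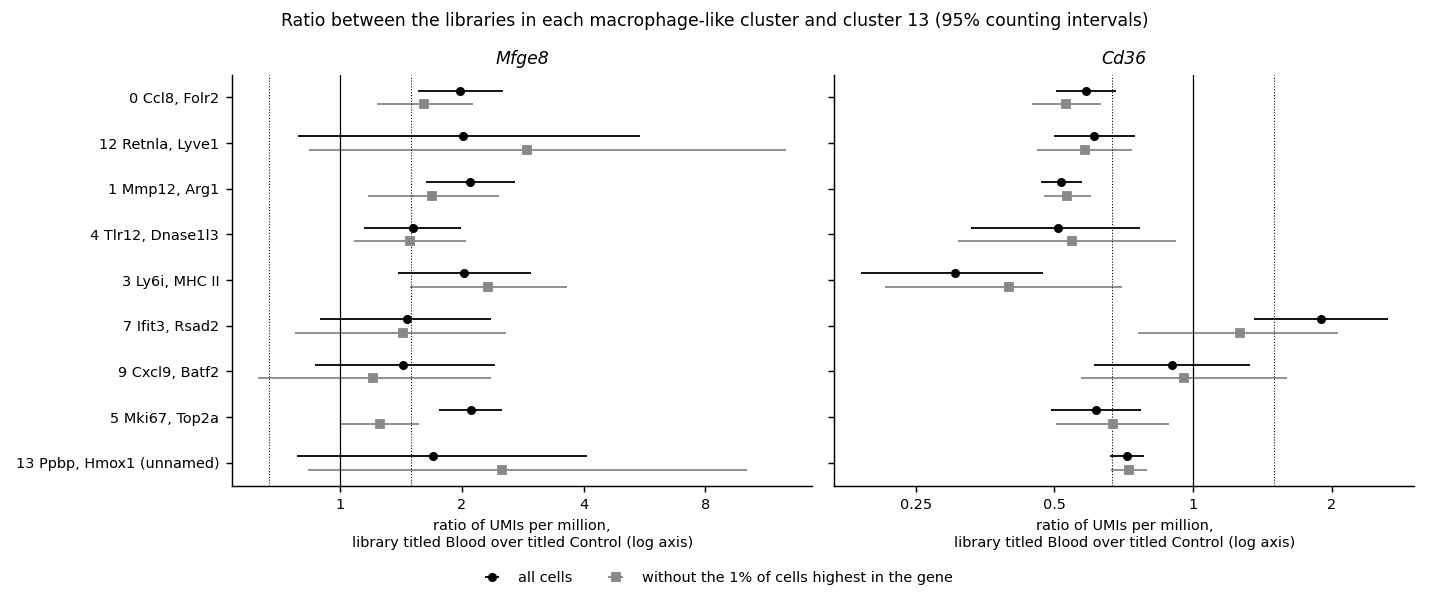
Ratio of CPM, titled Blood over titled Control (horizontal axes, log scale), for Mfge8 and Cd36 in each macrophage-like cluster and cluster 13, with exact 95% counting intervals; black points use all cells, grey squares leave out the 1% of cells highest in the gene, and dotted lines mark 1.5-fold in either direction. Mfge8 lies above 1 in every cluster shown, and Cd36 lies below 1 in all but cluster 7, where the ratio of 1.90 falls to 1.26 without 3 cells in titled Blood and 7 in titled Control.

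Other calls were found in clusters 4, 7, 12 and 13 and in osteoclast-like and neutrophil-like cells, some of them small or uneven groups. In cluster 12 Axl (ratio 0.595) and Pros1 (0.388) were lower in titled Blood besides Cd36, which made 3 of 8 measured genes where 10.5% of all genes were lower. In cluster 13 Axl (0.345), Gas6 (0.5695) and Marco were lower in titled Blood, 3 of 8, where 5.51% of all genes were. Marco was counted there through titled Control alone, where 18 of its 19 UMIs came from 1 cell. There the macrophage markers summed to 8965 CPM in titled Blood and 14275 CPM in titled Control. The platelet markers summed to 863 CPM in titled Blood and 205 CPM in titled Control (3 of 5 with a UMI in titled Blood and 2 of 5 in titled Control). The neutrophil markers summed to 367 CPM in titled Blood and 72.3 CPM in titled Control. The part of these markers in the ratios was not tested. In cluster 4 Gas6 was lower, at 32.5 CPM in titled Blood and 49.97 CPM in titled Control, a ratio of 0.651, 1 of 8 measured genes where 1.06% of all genes were lower. In cluster 7 Cd36 was higher in titled Blood, 1 of 7, where 2.07% of all genes were. In osteoclast-like cells, of which 54.3% in titled Blood and 51.2% in titled Control had shared barcodes, Msr1 was higher, at 109 CPM in titled Blood and 61.6 CPM in titled Control, 1 of 5 measured genes where 9.95% of all genes were. In neutrophil-like cells, with 1767 cells in titled Blood and 129 in titled Control, Msr1 (ratio 1.78, 0.798 to 4.95) and Scarb1 passed upwards, 2 of 4 measured genes where 24.8% of all genes did, and Axl (0.545, 0.230 to 1.57) passed downwards, where 18.2% did. These directions depended on the processing: the Axl ratio was 2.53 with doublets kept, and the Msr1 ratio was 0.720 with the libraries clustered apart. Scarb1 had no UMI in neutrophil-like cells of titled Control, which allows up to 11.5 CPM, above its 10.4 CPM in titled Blood. It passed the 10 CPM filter there through titled Blood alone, so the difference itself decided that it was counted. No measured gene passed in either direction in monocyte-like cells (0 of 6, where 3.5% of all genes did), conventional DC-like cells (0 of 5, 6.57%), T cell-like cells (0 of 3, 4.06%), NK cell-like cells (0 of 4, 9.68%), mesenchymal-like cells (0 of 6, 6.13%) or cluster 9 (0 of 8, 4.72%). In mesenchymal-like cells this did not hold without the shared barcodes, which 47 of 54 cells in titled Blood and 84 of 103 in titled Control carried. Those cells held 95.6% of the UMIs of this class in titled Blood and 94.5% in titled Control. In the few cells left the ratio was 8.06 for Stab1, 5.28 for Msr1, 0.516 for Pros1 and 0.664 for Mfge8, given without intervals. Among 57 migratory DC-like cells in titled Blood and 61 in titled Control, Axl had a ratio of 0.213 (0.081 to 0.478), Stab1 of 1.81 (1.07 to 3.13), Mfge8 of 1.64 (0.874 to 3.11) and Msr1 of 1.51 (0.869 to 2.62). The share of all genes past 1.5-fold was not computed for this class, so these ratios stand without a background and are not counted as calls.

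Of the pathway partners measured in macrophage-like cells, 1 passed 1.5-fold; over all 7770 measured genes 0.631% were at least 1.5-fold higher in titled Blood and 1.16% at least 1.5-fold lower. Of 21 further phosphatidylserine receptors and adaptors 13 were measured, and 0 passed 1.5-fold in either direction, with a median log2 ratio of 0.021. Lrp1, an uptake receptor for calreticulin-bearing cells, stood at 320.1 CPM in titled Blood and 259.9 CPM in titled Control. Cd300lf, a phosphatidylserine-binding receptor, stood at 77.5 CPM in titled Blood and 66.8 CPM in titled Control. Thbs1, a bridging glycoprotein, stood at 245 CPM in titled Blood and 272 CPM in titled Control. With both libraries summed, Cd300lf and Thbs1 were highest in neutrophil-like cells (cluster 2), at 679 CPM for Cd300lf and 4361 CPM for Thbs1. The part of neutrophil RNA in their macrophage-like levels was not tested. Calr, calreticulin itself, stood at 721 CPM in titled Blood and 814 CPM in titled Control. Tyro3, the third TAM receptor, had 8 UMIs in titled Blood and 8 in titled Control. Timd4, a phosphatidylserine receptor of resident macrophages, had 6 in titled Blood and 25 in titled Control. Of 12 further scavenger receptors 4 were measured and 0 passed, with Mrc1, the mannose receptor, at 668 CPM in titled Blood and 509 CPM in titled Control, a ratio of 1.31. Cxcl16, a chemokine that also binds oxidised lipoprotein, stood at 706 CPM in titled Blood and 652 CPM in titled Control. Scarb2 and Scarf1 had ratios of 1.03 for Scarb2 and 0.954 for Scarf1. Of 12 genes of the engulfment machinery 11 were measured and 0 passed, with Rac2, a small GTPase of the actin cytoskeleton, at 178 CPM in titled Blood and 209 CPM in titled Control. Elmo2, Crk and Arhgap12 had ratios of 0.916 for Elmo2, 1.16 for Crk and 1.18 for Arhgap12. Of 12 regulators and shedding proteases 10 were measured and 0 passed, with Furin, a proprotein convertase, at 171 CPM in titled Blood and 124 CPM in titled Control. Adam17, a protease known to shed Mertk, stood at 119 CPM in titled Blood and 97.7 CPM in titled Control. The liver X receptors Nr1h3 and Nr1h2 had ratios of 0.927 for Nr1h3 and 0.954 for Nr1h2. Of 16 genes of corpse digestion and lipid efflux all 16 were measured and 1 was at least 1.5-fold higher: Abca1, the cholesterol exporter, at 198 CPM in titled Blood and 129 CPM in titled Control, a ratio of 1.53 (1.49 to 1.57). Npc1, which moves cholesterol out of lysosomes, had a ratio of 1.29, Lipa, the lysosomal acid lipase, a ratio of 0.915, and Ucp2, a mitochondrial carrier, a ratio of 0.804. The call for Abca1 was lost with clusters at equal weights and with each library clustered on its own.

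Over the 25 clusters, the genes whose pattern was most like that of each receptor or ligand were named by Pearson's r of log2 levels, as a description, since clusters share libraries and depth. Mertk was most like Lgmn, a lysosomal protease (r = 0.95). Gas6 was most like Folr2, a folate receptor (r = 0.94), and Ccl8, a chemokine (r = 0.93). Stab1 was most like Ms4a14 (r = 0.96) and Mrc1 (r = 0.95), Msr1 most like Slc7a8, an amino acid transporter (r = 0.98), and Axl most like Gamt, a creatine synthesis enzyme (r = 0.91). Cd36 was most like Hmox1, which degrades haem (r = 0.80), and Slc48a1, which transports haem (r = 0.77). Mfge8 was most like Pde6d (r = 0.84) and Scarb1 most like Plod3 (r = 0.90). Pros1 and Marco stayed under 50 CPM in every cluster with both libraries summed and were not compared. Among the 10 genes themselves Gas6 and Stab1 were the most alike (r = 0.90), followed by Mertk and Stab1 (r = 0.89).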

How the data were processed

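Per the submitters' processing notes the authors used Cell Ranger 3.1.0 with mm10, and the deposited values are raw UMI counts for every gene and cell barcode. Kept cells had 300 or more genes, 500 or more UMIs and no more than 20% mitochondrial UMIs. Scrublet (scanpy 1.11.5) marked and removed 301 doublets (2.59%, 9.65% expected) in titled Blood and 157 (1.75%, 7.58% expected) in titled Control, so doublets remain. Both libraries were clustered together (2000 variable genes, 30 components, 15 neighbours, Leiden resolution 1, leidenalg 0.10.2), leaving out the 10 genes and 73 pathway genes. Names came from 22 marker lists, with score limits set after the data were seen. Summed UMI counts per class were scaled to CPM, with exact Poisson, Clopper-Pearson and conditional binomial intervals (scipy 1.17.1). A count of 0 is given the limit of 3 counts. Alternatives changed doublets, cell filter, resolution, joint clustering, clustering genes, weighting, scaling (TMM, edgeR 4.0.16), pseudocount, low-value filter and thinning. The genes and lists were chosen with earlier results of these data known. Named genes were the 10 genes, the 2 highest and 2 lowest ratios of each pathway list and the most alike genes over clusters; Tyro3 and Timd4 were named after their values were seen.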

Additional observations from a re-analysis of the deposited data

Results flagged for a closer look

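Cd36 moved in opposite directions between the libraries in different macrophage-like clusters. Its ratio, titled Blood over titled Control, was 1.90 (1.36 to 2.65) in cluster 7 (Ifit3, Rsad2) and 0.304 (0.189 to 0.471) in cluster 3 (Ly6i, MHC class II), where both clusters hold few Cd36 UMIs. With 1 library per group this difference between clusters was not tested. In cluster 7 of titled Blood 2 of 282 cells held 55.9% of the 68 Cd36 UMIs, 25 of them in 1 cell. Without the 1% of cells highest in the gene the ratio was 1.26 (0.759 to 2.06) in cluster 7 and 0.399 (0.214 to 0.702) in cluster 3.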

How the results depend on the processing

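Of 129 ratios of the genes in macrophage-like cells under other settings, 96 stayed within the counting interval, 33 moved and 0 changed the direction of a call. The settings that leave out the 1% highest cells, treat shared barcodes otherwise or count cluster 13 as macrophage-like were chosen after the data were seen. The count of genes at least 1.5-fold higher fell to 0 without the 1% of cells highest in the gene. That took the Mfge8 ratio to 1.46 and its level below the 10 CPM filter in both libraries. Under the other settings that ratio lay between 1.78 and 2.02. The count of genes at least 1.5-fold lower was 1, Cd36, at Leiden resolution 2, with the libraries clustered apart and with clusters at equal weights, and the Cd36 ratio ranged from 0.378 to 0.994. In neutrophil-like cells, of which titled Control had 129, the Axl ratio of 0.545 turned to 2.53 with doublets kept, and the Msr1 ratio of 1.78 turned to 0.720 when the libraries were clustered apart; the cause was not tested. Of 140 shares of UMIs in macrophage-like cells 117 moved with the clustering and naming. No paired analysis was possible because each group has 1 library. Depth limits Marco, Pros1 and Mfge8.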
